A study of Mus musculus with 16 samples.

Results

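Cells that lacked CD144 (VE-cadherin, the cadherin of endothelial junctions) were compared with cells that lacked CD41 (the integrin alpha-IIb chain of early blood progenitors and platelets), both sorted from mouse embryoid bodies at day 3.5. The comparison rested on 4 of the 16 arrays analysed here, 2 of each population, and covered all 45037 probe sets other than the manufacturer's controls. Both populations came from CCE, a mouse embryonic stem (ES) cell line, cultured into embryoid bodies after leukemia inhibitory factor was withdrawn, with no further genetic change or added inducer named in the sources used here. The 2 arrays of a population came from separately conducted experiments. The cells were dissociated, fixed in ethanol and acetic acid, stained and sorted by flow cytometry, and each array reads a whole sorted population. In such bulk samples fewer cells of a type and less RNA per cell cannot be told apart. The labels name a single surface marker for each population, so that by its label the CD41- sort need not have removed CD144+ cells, nor the CD144- sort CD41+ cells. The study's methods in places also write the CD41- population as VEGF-R2-. The study collected these cells as the negative controls of 2 positive sorts of the same day, and what was asked here is how far 2 control populations of equal age differ from each other.

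At this stage an embryoid body resembles a gastrulating embryo. Pluripotent epiblast cells held by the factors Pou5f1, Sox2 and Nanog pass through a primitive streak, driven by Wnt, Nodal, BMP and FGF signals, and take up mesodermal programs under factors such as Mixl1, Eomes and Mesp1. The VEGF receptor Kdr (VEGF-R2, also Flk1) marks lateral mesoderm that can give rise to blood, vessel and heart. Cells of the heart fields then turn on Isl1, Hand and Gata factors and contractile genes, while endothelial and blood cells turn on Cdh5 and Itga2b, the genes of CD144 and CD41.

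The arrays of the 2 populations were close in technical measures, with small differences between them. The geometric mean of the spiked control transcripts was 1574 and 1640 on the CD144- arrays and 1712 and 1751 on the CD41- arrays. It was 1219 to 1751 over all negative populations and 3637 to 6288 over the positive populations. The median signal was 81 and 76.9 on the CD144- arrays and 88.4 and 84 on the CD41- arrays. The ratio of 3' to 5' signal was 0.832 to 0.866 for Gapdh and 1.77 to 2.22 for beta-actin. The rank correlation across probe sets was 0.953 between the CD144- arrays and 0.955 between the CD41- arrays, and 0.938 to 0.946 between arrays of different populations. Among probe sets above the median signal the duplicates of CD144- cells differed by a median of 0.142 on the log2 scale and those of CD41- cells by 0.150.

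The 2 sorted markers themselves were low in both populations. The signal of Itga2b was 223.9 and 178.9 on the CD144- arrays and 227.0 and 195.4 on the CD41- arrays, and the groups overlapped (log2 difference -0.07, SE 0.24, limma adjusted p = 1). In CD41+ cells of the same day its mean was 6411. The signal of Cdh5 was 38.3 and 20.5 on the CD144- arrays and 27.7 and 20.6 on the CD41- arrays, again overlapping (0.19, SE 0.35, adjusted p = 0.992), against a mean of 1974 in CD144+ cells. A difference in either marker gene was therefore not detectable between the negative populations. Kdr behaved otherwise, with signals of 1001 and 739.9 in CD144- cells and 53.5 and 95.1 in CD41- cells. Each CD144- array stood above each CD41- array, and the log2 difference was 3.48 (SE 0.27, adjusted p = 1.06e-06), an 11.2-fold difference on the scale of signal plus offset. If the CD41- gate also removed VEGF-R2+ cells, Kdr was part of the sort. In VEGF-R2- cells at day 2.5 Kdr was at 2088 and 2077, and in VEGF-R2+ cells of that day at 5475 and 6297. The part of such a gate in the Kdr difference and in the others was not tested. Pecam1 (CD31, an adhesion molecule of endothelium that ES cells also carry) ran the other way, at 55.3 and 66.9 in CD144- cells and 215.5 and 357.7 in CD41- cells (-2.09, SE 0.27, adjusted p = 2.82e-04).

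Across all probe sets, 788 of 45037 (1.75%) passed limma's test at an adjusted p under 0.05. Of these, 468 (1.04% of all tested) were higher in CD144- cells and 320 (0.711%) were lower. Differences are given throughout as CD144- minus CD41-, on the log2 scale of the signal plus an offset of 6.03, the 10th percentile of all values. The higher probe sets named 352 genes and the lower ones 230 genes, counting those with 1 gene symbol. No called probe set overlapped between the 2 populations, so that separation adds nothing to the call of a gene. The median size was 1.25 among the higher and 1.23 among the lower probe sets, 302 and 213 of them exceeded a log2 difference of 1, and 19 and 9 exceeded 3. An interval criterion of fold size, with the whole 90% interval beyond a 2-fold difference, was met by 226 higher (0.502%) and 191 lower (0.424%) probe sets. When each array was centred on its own median, the median of all differences moved by 0.12 and the split became 440 higher and 163 lower, so that 73.0% of the calls were higher in place of 59.4%. The count of calls was 304 to 322 when any 1 of the 4 arrays was left out, which leaves 1 array against 2.

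**Figure D1:**
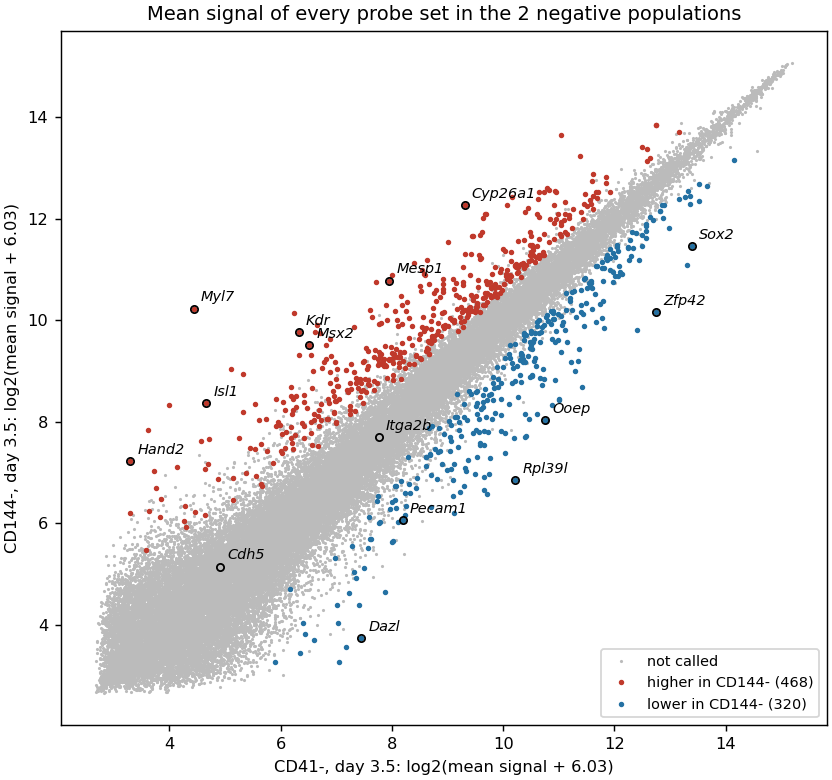
Mean signal of each probe set in CD41- cells (x axis) and CD144- cells (y axis) at day 3.5, as log2 of the mean of 2 arrays plus 6.03. Red points are the 468 probe sets called higher and blue points the 320 called lower in CD144- cells at a limma adjusted p under 0.05, grey points were not called, and circles mark named genes. Myl7 and Kdr lie far above the diagonal, Rpl39l and Dazl far below it, and Itga2b and Cdh5 lie on it.

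Among the 31 gene lists described here, that of the primitive streak and the mesoderm it forms had the largest share of members called higher. Of 28 measured members, 14 rose and none fell, with a median difference of 1.55 over the list against -0.03 over all probe sets and 0.03 over genes represented by 1 probe set each. Over such genes 1.8% were called higher and 1.11% lower, the shares beside which the counts of every list below stand. Mesp1, the bHLH factor that marks the earliest cardiovascular mesoderm, had signals of 1658 and 1857 in CD144- cells and 239.6 and 242.4 in CD41- cells. The populations were far apart and the duplicates close, and the log2 difference was 2.83 (SE 0.26, adjusted p = 7.56e-06). Msx2, a homeobox target of BMP signals, stood at 778.8 and 672.0 against 78.1 and 92.8, a difference of 3.0 (SE 0.23, adjusted p = 1.16e-06). Pdgfra, the PDGF receptor of paraxial and cardiac mesoderm, was at 1329 and 1033 in CD144- cells and at 172.8 and 207.0 in CD41- cells (2.59, SE 0.23). Lhx1 and Snai1, a LIM homeobox factor of the streak and a repressor of E-cadherin that acts as cells leave the epithelium, also rose, by 2.27 (SE 0.44) and 2.21 (SE 0.38). Lhx1 reached 5644 and 5376 against 1205 and 1079. The other members that rose were Mesp2, Evx1, Hand1, Tbx3, Foxf1, Cer1, Mixl1, Msx1 and Fgf8, with differences of 0.90 to 2.11. Mixl1, a homeobox gene of the streak, was already substantial in CD41- cells, at 1616 and 1560, and reached 4020 and 4310 in CD144- cells. Eomes, a T-box factor of the streak, was at 5929 and 4995 against 3105 and 3092, without overlap, but its difference of 0.81 (SE 0.27) did not pass the test (adjusted p = 0.202). Nodal and Lefty2 differed by -0.34 and 0.09 and did not pass. The list's 14 calls became 8 to 9 with 1 of the 4 arrays left out. Lhx1 lost its call in each of these fits (adjusted p = 0.0795 to 0.117) and Snai1 in the fits without CD144- replicate 1, CD144- replicate 2 or CD41- replicate 2 (adjusted p up to 0.0784), while Msx2, Mesp1 and Pdgfra kept theirs in all 4.

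Heart genes gave the largest difference of the comparison. Of 29 measured members of the cardiac list 7 rose and 1 fell, and the list's median was 0.19, so that the change lay in a subset of its genes. Myl7, the atrial regulatory light chain of myosin, had signals of 1198 and 1195 in CD144- cells and 12.96 and 18.17 in CD41- cells. Both CD41- values lie under the 25th percentile of all values, 23.4, so that the 56.1-fold difference (5.81, SE 0.18, adjusted p = 1.37e-11) depends on how MAS5 reads dim probe sets. Isl1, the LIM homeobox factor of the second heart field, stood at 296.4 and 353.6 against 30.5 and 8.0 (3.86, SE 0.46, adjusted p = 1.06e-04). Another Isl1 probe set differed by 1.65 (SE 0.54) and was not called. Hand2, a bHLH factor of heart and lateral mesoderm, stood at 156.4 and 128.9 against 3.7 and 3.9, values under the offset itself (3.91, SE 0.37, adjusted p = 9.85e-06). Other, dimmer Hand2 probe sets differed by -0.51 and 0.30 and were not called. The zinc finger factors Gata4 and Gata6 rose by 2.22 (SE 0.26) and 2.08 (SE 0.18). Gata6 was well measured in both populations, at 1353 and 1253 against 297.5 and 309.1. Hand1 and Tbx20, regulators of ventricular and chamber development, rose by 2.04 and 2.05. The member that fell was Myh6, the alpha myosin heavy chain (-1.64), which together with Tbx20 is named after its value was seen. Myh6 lost this call under quantile normalization, centring of each array on its median and a robust prior without trend. It also lost the call whichever array was left out. Nkx2-5, an early cardiac homeobox factor, was at 84.7 and 75.8 against 70.8 and 68.3 (0.19, adjusted p = 1), and Tnnt2, the cardiac troponin T, at 23.9 and 20.3 against 13.3 and 30.1 (0.09, adjusted p = 1). The groups of Tnnt2 overlapped. Of 3 cardiac markers (Nkx2-5, Myl7, Tnnt2) only Myl7 was thus called.

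The 250 bases before the RefSeq start of the cardiac genes that rose are shown because Gata4 and Gata6, which are among them, bind GATA motifs. The form AGATAA was searched on both strands, and so was the form TGATAA. Both were also searched with G as the last letter. The promoter table held 4 of the 7 cardiac genes that rose, and 3 of these, Myl7, Hand2 and Isl1, contained a match, while 29.7% of 27025 genes with a promoter in that table did. With 4 genes this count is a description of letters and not of binding. Capitals mark the matches, and a match on the other strand appears as its reverse complement. Coordinates are those of RefSeq for GRCm38.p6, with each sequence read 5' to 3' in the direction of the gene. Myl7 is from chr11:5898783-5899032 on the minus strand, Hand2 from chr8:57320733-57320982 on the plus strand and Isl1 from chr13:116309689-116309938 on the minus strand.
Myl7: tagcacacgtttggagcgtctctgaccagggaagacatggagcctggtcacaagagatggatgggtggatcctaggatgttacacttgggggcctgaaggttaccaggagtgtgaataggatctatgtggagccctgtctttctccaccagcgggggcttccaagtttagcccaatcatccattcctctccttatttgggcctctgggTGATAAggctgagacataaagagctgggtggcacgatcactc
Hand2: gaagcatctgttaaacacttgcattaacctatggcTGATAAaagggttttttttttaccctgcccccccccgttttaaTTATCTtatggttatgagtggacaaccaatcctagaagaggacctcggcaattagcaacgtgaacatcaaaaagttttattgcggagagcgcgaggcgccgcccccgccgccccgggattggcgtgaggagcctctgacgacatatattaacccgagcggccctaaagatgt
Isl1: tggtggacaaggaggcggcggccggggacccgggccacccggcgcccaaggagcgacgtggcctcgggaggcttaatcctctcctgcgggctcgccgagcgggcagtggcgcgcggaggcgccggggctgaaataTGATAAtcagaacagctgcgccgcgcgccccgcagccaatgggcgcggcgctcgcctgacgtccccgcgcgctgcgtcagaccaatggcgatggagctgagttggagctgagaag
The match in Myl7 starts 42 bases before the transcription start, that in Isl1 115 bases before it, and those in Hand2 215 and 172 bases before it.

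Ligands and feedback genes of the BMP pathway rose with the mesodermal genes, and Msx1 and Msx2 were counted in both lists. Of 23 measured members of the BMP list 10 rose and none fell (median 0.97), beside 1.8% called higher over genes represented by 1 probe set each. Bmp2, a ligand needed for heart and amnion, was at 1268 and 1248 in CD144- cells and 232.5 and 230.5 in CD41- cells (2.41, SE 0.17, adjusted p = 3.26e-07). Bmp4, the ligand that induces posterior mesoderm, was at 1496 and 1630 against 457.9 and 498.1 (1.70, SE 0.17), and Bmp5 at 205.5 and 195.0 against 27.7 and 36.9 (2.44, SE 0.42). All 3 ligands were higher on each CD144- array, as was every probe set called higher. The inhibitory Smad6, which BMP signals induce, rose by 1.71 (SE 0.23), and Id1, Msx1, Bambi, the signal transducer Smad1 and the secreted antagonist Fst rose by 0.97 to 1.34. Bmper, a secreted BMP binding protein outside the list, was at 921.4 and 989.2 against 96.3 and 92.7 (3.26, SE 0.32). Bmp5 lost its call in 3 of the 4 fits that left out an array, all but that without CD41- replicate 2 (adjusted p up to 0.0647), and Fst in all 4 (adjusted p = 0.0792 to 0.222).

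In the Wnt list 6 of 24 measured members rose and none fell (median 0.56). The ligand Wnt5a, which acts outside the beta-catenin route in convergent extension, was at 675.6 and 585.1 in CD144- cells and 79.7 and 96.1 in CD41- cells (2.76, SE 0.48, adjusted p = 3.62e-03). The secreted inhibitors Dkk1 and Frzb rose by 1.93 (SE 0.19) and 1.82 (SE 0.28), with Dkk1 at 1137 and 1181 against 320.3 and 282.1. Rspo3, a secreted amplifier of Wnt signals, and Lgr5, a receptor of that family of amplifiers, rose by 1.71 and 1.43. The remaining member that rose was Sp5, a direct Wnt target (1.20). Agonists and antagonists of the pathway therefore stood higher together. Wnt5a was not called without CD144- replicate 1 or CD41- replicate 1 (adjusted p up to 0.0709), nor Lgr5 without CD41- replicate 1 (adjusted p = 0.0549).

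**Figure D2:**
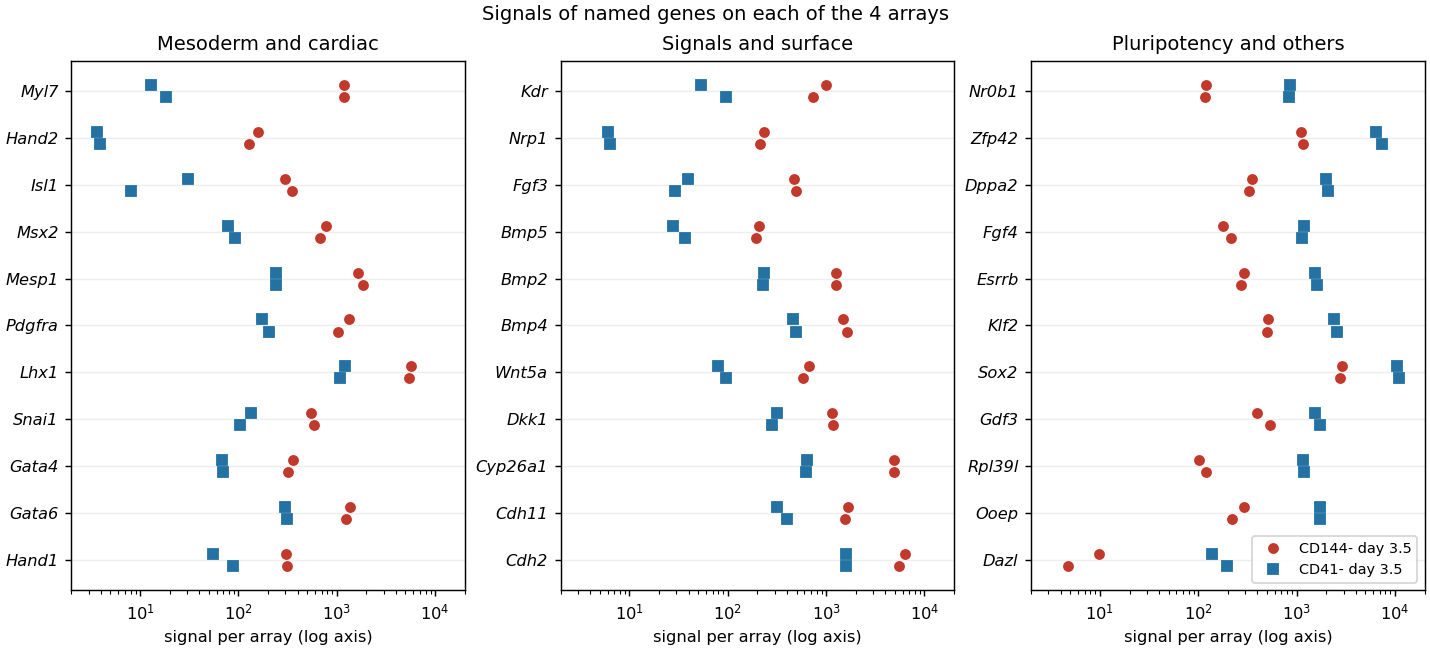
Signal on each of the 4 arrays, on a log axis, for named genes of mesoderm and heart (left), of signalling and cell surface (middle) and for genes that ran lower in CD144- cells (right). Red circles are the 2 CD144- arrays and blue squares the 2 CD41- arrays, with replicate 1 drawn above replicate 2. In each row the 2 populations are separated, as they are for every called probe set. Myl7, Hand2 and the Nrp1 probe set drawn have CD41- signals under the 25th percentile of 23.4.

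The FGF, Nodal, Notch and retinoic acid lists were split or sparsely called. Fgf3 and Fgf8, ligands of streak and early mesoderm, rose by 3.62 (SE 0.21) and 0.90 (SE 0.19), whereas Fgf4, a ligand of the pluripotent epiblast, and Etv5, a transcriptional target of FGF signals, fell by 2.52 and 0.80 on the log2 scale. Fgf3 stood at 474.1 and 497.0 in CD144- cells and 39.5 and 28.9 in CD41- cells. Fgf4 ran opposite at 179.6 and 217.1 against 1179 and 1141. In total 2 of 20 measured FGF genes rose and 2 fell. Of 16 genes of Nodal and activin signalling, Cfc1 (Cryptic, a Nodal co-receptor), the antagonists Cer1 and Fst, and Foxh1, the DNA-binding partner of Smad2, rose, while Gdf3, a ligand of the same family found in ES cells, fell. Cfc1 was at 1980 and 2229 against 699.9 and 524.3 (1.78, SE 0.17). Gdf3 was at 392.9 and 533.5 against 1524 and 1713 (-1.81, SE 0.22). Of 19 Notch genes the ligands Dll3 (1.49) and Jag1 (0.84) and the feedback gene Nrarp (0.98) rose, and Rbpj, the DNA-binding factor of the pathway, fell by 0.68. In the retinoic acid list only Cyp26a1 of 16 measured genes was called. This enzyme, which degrades retinoic acid, was at 4947 and 4949 in CD144- cells and 633.1 and 620.2 in CD41- cells, a difference of 2.97 (SE 0.24, adjusted p = 1.79e-06) with duplicates within a few percent. Fgf8, Etv5, Foxh1, Jag1 and Rbpj, all of small size, lost their calls whichever of the 4 arrays was left out (adjusted p = 0.073 to 0.224), and Nrarp without CD144- replicate 1, CD144- replicate 2 or CD41- replicate 1 (adjusted p up to 0.0748).

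Of 22 measured Hox genes Hoxb2 and Hoxb1, both from the anterior end of the Hoxb cluster, rose and none fell. Over genes represented by 1 probe set each, 1.8% were called higher. Hoxb2 stood at 358.7 and 359.3 against 60.1 and 73.5 (2.33, SE 0.22, adjusted p = 1.15e-05). Hoxb1 stood at 320.1 and 287.5 against 88.2 and 78.5 (1.79, SE 0.33), and its call was lost whichever array was left out (adjusted p = 0.0526 to 0.105). Both genes were higher on each CD144- array, as was every probe set called higher. Of 20 genes in the insulin-like growth factor and imprinted list 4 rose and none fell. Igf2, the imprinted fetal growth factor, was at 1532 and 1818 against 368.4 and 430.6 (2.05, SE 0.21), and Igfbp4, which binds such factors, rose by 1.85 (SE 0.18). Peg3, a paternally expressed zinc finger gene, and Igf2bp3, an RNA-binding protein, rose by 1.28 and 0.59. Peg3 was not called without CD144- replicate 1, CD144- replicate 2 or CD41- replicate 2 (adjusted p up to 0.123), and Igf2bp3 in none of the fits that left out an array (adjusted p = 0.137 to 0.36).

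Adhesion, intermediate filament and matrix genes also rose in CD144- cells. In the smooth muscle and mesenchyme list 4 of 23 members rose and none fell. Cdh11 and Cdh2, the cadherins of mesenchyme and of mesodermal cells after the streak, rose by 2.17 (SE 0.23) and 1.88 (SE 0.26), and Vim and Anxa2, a filament and a membrane-binding protein of mesenchymal cells, by 1.15 (SE 0.15) and 1.27 (SE 0.17). Cdh2 reached 6270 and 5505 against 1591 on each CD41- array. In the basement membrane list 5 of 17 rose and none fell, namely the type IV collagens Col4a1 and Col4a2 and the keratins Krt8, Krt18 and Krt19 of simple epithelia. Krt8 was at 5748 and 6050 against 1817 and 1583 (1.79, SE 0.19). Of 17 fibroblast matrix genes, kept as markers of leftover feeder cells, Col1a1, Col5a1, Fn1 and Col1a2 rose and none fell. The 5 fibroblast feeder markers (Col1a1, Col3a1, Dcn, Lum and Postn) summed to 318.1 and 218.2 in CD144- cells and 97.3 and 118.4 in CD41- cells, with only Col1a1 called. Col1a1 itself was low, at 183.5 and 93.4 against 9.6 and 30.0. The part of feeder cells in these differences was not tested. Col5a1, Col1a2, Col4a1 and Krt18 were not called in any fit that left out an array (adjusted p = 0.0709 to 0.423), Col1a1 only in that without CD41- replicate 2 (adjusted p up to 0.393 otherwise), and Krt19 not without CD144- replicate 2 or CD41- replicate 1 (adjusted p up to 0.0705).

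The called members of the endoderm and trophoblast lists also belonged to other lists. Of 27 endodermal genes Gata4, Gata6, Sox17 and Cer1 rose. Sox17, a factor of endoderm and of arterial endothelium, was at 1758 and 1814 against 470.9 and 482.4 (1.89, SE 0.28, adjusted p = 1.00e-03). The endodermal markers Afp, Ttr and Apoa1 were low in both populations, at 2.1 to 55.6 on the 4 arrays, and Foxa2 was at 1643 and 1820 against 1005 and 951.7, which did not pass (0.82, adjusted p = 0.0953). Of 14 trophoblast genes Hand1, Krt8 and Krt18 rose. Of 31 neuroectodermal genes Fabp7, a fatty acid binding protein of neural progenitors, rose by 1.55, and Sox2 and the neuronal tubulin Tubb3 fell by 1.93 and 2.08. Fabp7 lost its call whichever array was left out (adjusted p = 0.166 to 0.211), and Tubb3 without CD144- replicate 2 or CD41- replicate 1 (adjusted p up to 0.0686).

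Endothelial genes moved in both directions. Of 37 measured members 5 rose (Kdr, Sox17, Tal1, Flt1 and Etv2) and 3 fell (Klf2, Pecam1 and Tek), with a median of 0.17. Etv2, the ETS factor that opens the blood and endothelial program, and Flt1, the other VEGF receptor of this stage, rose by 0.94 and 1.5. Klf2, a flow-responsive factor of endothelium that also belongs to the ES cell network, was at 516.1 and 500.5 in CD144- cells and 2381 and 2594 in CD41- cells (-2.28, SE 0.17, adjusted p = 5.95e-07). Tek, the angiopoietin receptor, was at 25.9 and 41.5 against 146.9 and 92.5 (-1.66, SE 0.26). Tie1 was below the offset or close to it in both, at 1.8 to 6.6. The 5 endothelial markers (Cdh5, Pecam1, Tie1, Tek and Kdr) summed to 1124 and 870.6 in CD144- cells and 446.3 and 572.5 in CD41- cells. Kdr made up most of the CD144- sums, and without Kdr the other markers summed to less in CD144- than in CD41- cells. Nrp1, a co-receptor for VEGF and semaphorins, had 2 probe sets among the 10 largest higher differences with a mean over the 4 arrays above 85.8. The brighter of these gave 235.0 and 212.2 against 6.1 and 6.3 (4.23, SE 0.24, adjusted p = 4.27e-08) and the other 203.2 and 181.1 against 29.1 and 6.4 (3.25, SE 0.43). Another Nrp1 probe set, brighter than both with a mean of 352 over the 4 arrays, gave 2.98 (SE 0.21, limma adjusted p = 3.53e-07). A dimmer one gave 0.88 (SE 0.93) and was not called.

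Early blood genes were called in both directions. Of 25 members of the early hematopoietic list 5 rose (Fli1, Tal1, Hhex, Lmo2 and Gata2) and 2 fell (Laptm5 and Myb), and the median was 0.07. Lmo2 and Gata2 lost their calls whichever of the 4 arrays was left out. Tal1 (Scl), the bHLH factor required for all blood formation, was at 225.3 and 196.1 in CD144- cells and 71.5 and 45.9 in CD41- cells (1.77, SE 0.18, adjusted p = 2.45e-05). Both levels were small beside the mean of 8091 in CD41+ cells. Fli1, an ETS factor of blood and endothelium, was at 47.4 and 29.1 against 2.4 and 9.4, and Hhex, a homeobox factor of both lineages and of endoderm, at 1152 and 1034 against 425.4 and 414.9 (1.36, SE 0.16). Myb, a factor of definitive progenitors, was at 694.8 and 628.0 against 2232 and 1971 (-1.66, SE 0.16, adjusted p = 1.35e-05). Laptm5, a lysosomal protein of blood cells, fell by 1.93 (SE 0.32). Fli1 lost its call without CD144- replicate 1 (adjusted p = 0.0594), and Laptm5 without CD144- replicate 1 or CD41- replicate 2 (adjusted p up to 0.0571).

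Of the embryonic globins Hbb-bh1 and Hba-x were called higher in CD144- cells and Hbb-y was not. Of 25 primitive erythroid genes Hbb-bh1, Hba-x and Zfpm1 rose and none fell, with a median of 0.12. Hbb-bh1, the embryonic beta-like globin of yolk sac red cells, was at 720.0 and 581.5 in CD144- cells and 292.3 and 206.5 in CD41- cells (1.38, SE 0.23, adjusted p = 2.74e-03). Its embryonic alpha-like partner Hba-x was at 175.1 and 102.4 against 60.8 and 43.7 (1.28, SE 0.29, adjusted p = 0.0258). The groups of both genes did not overlap, yet in CD41+ cells the means were 52609 and 36552. Hbb-y, another embryonic beta-like globin, was at 19.5 and 24.9 against 3.0 and 16.2 (0.99, SE 0.41, adjusted p = 0.408). Zfpm1 (Fog1), the cofactor of Gata1, rose by 1.39 (SE 0.20), whereas Gata1 and Klf1, the main erythroid factors, differed by 0.18 and 0.58 and overlapped between groups. The 5 erythroid markers (Hba-x, Hbb-y, Hbb-bh1, Klf1 and Gata1) summed to 1062 and 833.0 in CD144- cells and 506.0 and 342.7 in CD41- cells. Hba-x was called only when CD144- replicate 2 was left out, among the 4 such fits (adjusted p up to 0.396), and Hbb-bh1 not without CD144- replicate 1 or CD41- replicate 2 (adjusted p up to 0.0791). No gene of the megakaryocyte list (18 measured) or the myeloid list (19 measured) was called. At an unadjusted limma p under 0.05 were 1 and 3 of them, beside 2426 of 18193 genes represented by 1 probe set each. Clec1b, a platelet receptor, differed by 0.54 (SE 0.57), and the brightest members of the myeloid list, Alox5ap and Cd68, by -0.32 and 1.01. Cd68, a lysosomal protein of macrophages, was at 1048 and 1126 against 482.6 and 593.0 and did not pass (adjusted p = 0.127). Of the 3 erythroid genes that rose the promoter table held 2, of which Hba-x contained a GATA motif and Zfpm1 a motif of Krueppel-like factors (GGGTGTGG or GGGCGTGG on either strand), which 8.81% of all genes in the table contained.

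Genes of the pluripotent state ran lower in CD144- cells. Of 30 measured members of that list 15 fell and 1 rose, with a median of -1.40, and the share called lower over genes with 1 probe set each was 1.11%. Zfp42 (Rex1), a zinc finger marker of ES cells, was at 1119 and 1151 in CD144- cells and 6356 and 7452 in CD41- cells (-2.59, SE 0.23, adjusted p = 5.18e-06). Esrrb, an orphan nuclear receptor of the naive ES cell network, was at 288.4 and 268.9 against 1527 and 1601 (-2.46, SE 0.21), and Dppa2, a chromatin protein of early embryos, at 352.8 and 329.7 against 1971 and 2107 (-2.56, SE 0.23). Each of these was lower on both CD144- arrays, as was every probe set called lower. Nr0b1 (Dax1), a nuclear receptor of the same network, was at 119.4 and 118.4 against 865.1 and 843.3 (-2.78, SE 0.56). Sox2 was at 2921 and 2736 against 10563 and 11005 (-1.93, SE 0.30, adjusted p = 1.67e-03). The other members that fell were Fgf4, Dppa3, Klf2, Tfcp2l1, Dppa4, Fbxo15, Gdf3, Klf4, Utf1 and Pou3f1, by 1.08 to 2.52 on the log2 scale, and the member that rose was Tbx3. Pou5f1 and Nanog, the genes most closely tied to pluripotency, did not follow. Pou5f1 was at 6675 and 4996 against 5403 and 6014, with the groups overlapping (0.02, SE 0.44, adjusted p = 1), and Nanog at 9794 and 9577 against 11949 and 12573 (-0.34, SE 0.24, adjusted p = 0.829). Fgf5, a ligand of the primed epiblast, was at 2264 and 2285 against 1607 and 1859 (0.40, adjusted p = 0.96). Nr0b1 and Klf4 lost their calls whichever array was left out. In each such fit other members that fell, named here without their signals, lost their calls too.

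The promoter of Zfp42 is shown as that of the brightest of the 5 members with the largest falls (Nr0b1, Zfp42, Dppa2, Fgf4 and Esrrb), with the octamer bound by Pou5f1, ATGCAAAT, in capitals as its reverse complement. The octamer was chosen after these data were seen. The promoter table held 9 of the 15 genes that fell, Zfp42 alone among them contained the octamer, and 1.81% of all genes in the table did. The 250 bases are from chr8:43307010-43307259 on the minus strand of GRCm38.p6, and the match starts 186 bases before the transcription start.
Zfp42: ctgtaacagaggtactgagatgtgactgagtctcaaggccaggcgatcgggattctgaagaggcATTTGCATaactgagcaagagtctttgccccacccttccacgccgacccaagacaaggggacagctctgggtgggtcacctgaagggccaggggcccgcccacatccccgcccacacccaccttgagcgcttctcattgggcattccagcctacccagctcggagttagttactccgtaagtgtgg

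The 10 largest differences in the lower direction, among probe sets with 1 symbol and a mean over the 4 arrays above 85.8 (the median of all values), included genes known from germ cells, oocytes and the preimplantation embryo. Dazl, an RNA-binding protein of germ cells, was at 9.8 and 4.8 in CD144- cells and 138.5 and 197.6 in CD41- cells (-3.72, SE 0.74, adjusted p = 0.0116). Smc1b, a cohesin subunit of meiosis, was at 27.7 and 10.6 against 248.6 and 206.9 (-3.30, SE 0.69). Rpl39l, a ribosomal protein paralog best known from testis, was at 102.1 and 118.6 against 1167 and 1195 (-3.35, SE 0.19, adjusted p = 4.27e-08). Ooep, a protein of the subcortical maternal complex of oocytes, was at 293.3 and 218.5 against 1714 and 1726 (-2.74, SE 0.19, adjusted p = 3.36e-07). In all 4 genes the 2 populations were separated, which the rule for choosing them required. Dazl and Smc1b passed the limit on the mean through their CD41- arrays, and the size and rank of their differences rest on dim CD144- values. The remaining probe sets of this kind measured Mcf2 (-3.01), Triml1 (-2.91), Nr0b1 (-2.78), AU018091 (-2.76), 1700097N02Rik (-2.75) and Mymx, a fusion peptide of myoblasts (-2.70). Mymx was at 180.2 and 224.5 against 1276 and 1403. Dazl, Smc1b and Triml1 were not called in any fit that left out an array (adjusted p = 0.0591 to 0.29). Mcf2 was called only in that without CD144- replicate 1 (adjusted p up to 0.079), and AU018091 not without CD144- replicate 1 or CD41- replicate 2 (adjusted p up to 0.0626).

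In the upper direction the 10 largest differences under the same limits were those of Myl7, Nrp1, Isl1, Fgf3, Kdr and Bmper given above and of Klhl6, Asb4 and Pcsk5. Klhl6, a kelch protein best known from B cells and endothelium, was at 493.5 and 553.1 against 48.9 and 8.0 (4.25, SE 0.39, adjusted p = 6.72e-06). Asb4, an oxygen-regulated ubiquitin ligase subunit of vascular precursors, was at 1134 and 1109 against 42.0 and 98.1 (4.0, SE 0.41, adjusted p = 1.87e-05). Pcsk5, a proprotein convertase, was at 307.7 and 333.7 against 70.5 and 10.1 (3.22, SE 0.51). The CD144- duplicates of all 3 were close to each other, while the CD41- duplicates were low and scattered. Except for Bmper, each of these largest differences had a CD41- mean under 85.8. Those probe sets passed the limit on the mean through their CD144- arrays, and the size and rank of their differences rest on dim CD41- values.

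Lists of general cell state held few calls, with larger differences in the stress lists. With the brightest probe set standing for each gene, none of 12 ribosomal protein genes, 23 respiratory chain genes, 29 genes of replication and mitosis, 20 genes of sterol synthesis or 25 genes of amino acid starvation and the unfolded protein response was called by limma, with 0, 0, 2, 3 and 7 of them at an unadjusted p under 0.05. An unadjusted limma p under 0.05 was reached by 2426 of 18193 genes represented by 1 probe set each. When any probe set of a gene counted, 1 ribosomal gene was called higher, and 1 respiratory chain gene and 1 replication gene lower. By their brightest probe sets the ribosomal and respiratory chain genes lay between -0.21 and 0.27. Rpl4, for example, was at 28398 and 29816 in CD144- cells and 31409 and 28785 in CD41- cells, and Pcna, the replication clamp, at 16691 and 17792 against 19931 and 18260. In the heat shock list Hspa1b, an inducible Hsp70, was at 4236 and 4497 against 814.4 and 811.5 (2.42, SE 0.23, adjusted p = 8.68e-06), while Mt2, a metallothionein, and Gclm, a subunit of glutathione synthesis, fell by 1.02 and 0.80. Jun, an immediate early gene that handling of cells can induce, rose by 1.63 (2726 and 1988 against 627.5 and 894.1). With the brightest probe set standing for each of 21 immediate early genes, Jun rose and Klf4 fell, and the count that rose was 3 when any probe set of a gene counted and 7 with only the 4 arrays in the fit. Of 33 hypoxia and glycolysis genes Pfkfb3, Ndrg1 and P4ha2 rose by 1.07, 1.0 and 0.69 and Pfkp and Pdk1 fell by 1.03 and 0.60. The promoters of P4ha2 and Pfkfb3, those held of the 3 that rose, both contained a core of the hypoxia response element (ACGTG or GCGTG on either strand), as did 41.5% of all genes in the table. Of 18 p53 targets and cell death genes Perp, a desmosomal protein, rose by 0.88. For these stress and cell state lists too, the shares over genes represented by 1 probe set each were 1.8% higher and 1.11% lower. Ndrg1, P4ha2, Pdk1, Mt2, Gclm and Perp were not called in any fit that left out an array (adjusted p = 0.104 to 0.363), Jun not without CD144- replicate 1 or CD41- replicate 1 (adjusted p up to 0.0918), and Pfkfb3 not without CD144- replicate 1 (adjusted p = 0.0571).

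**Figure D3:**
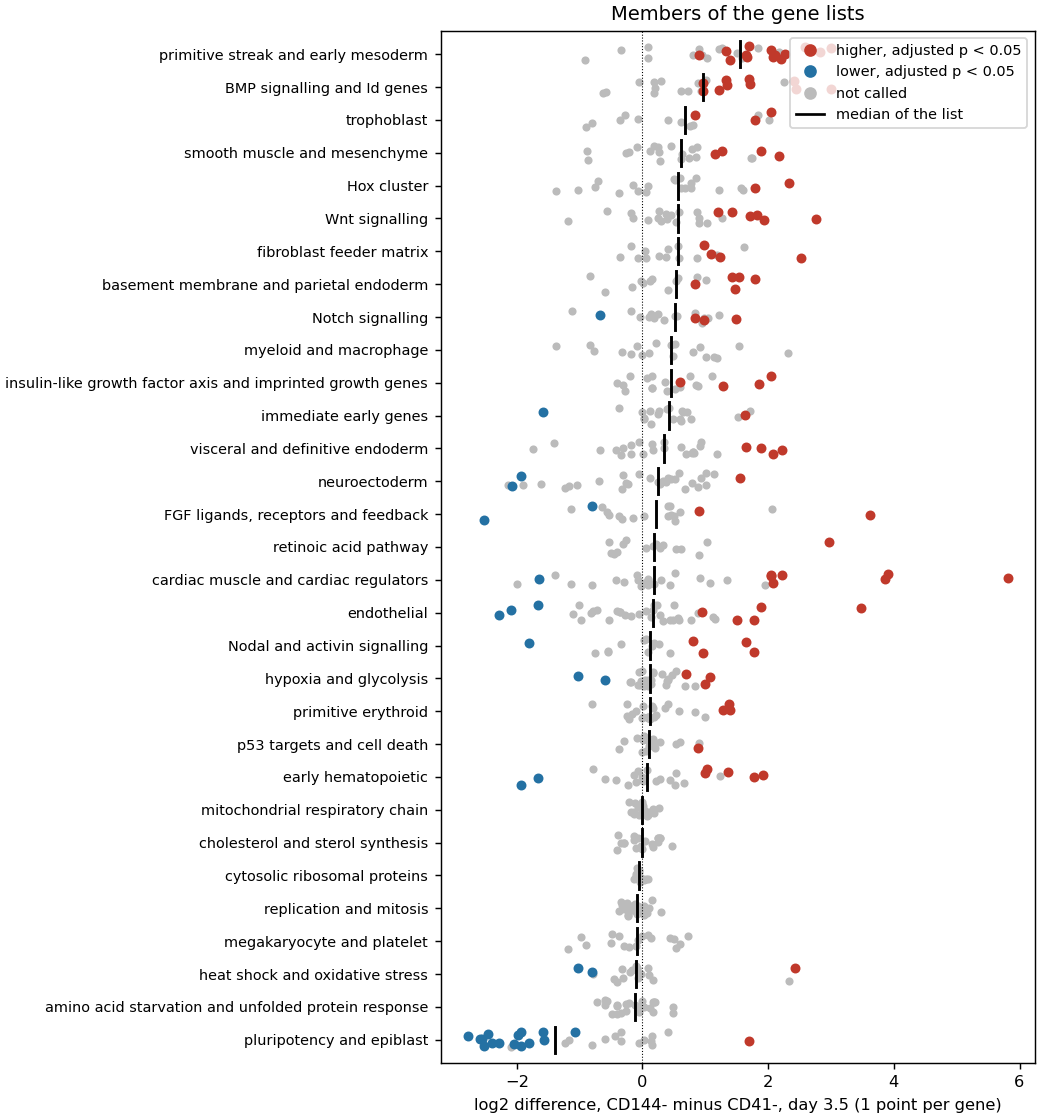
Log2 difference, CD144- minus CD41- at day 3.5, for each measured member of the 31 gene lists, ordered by the median of the list (black bar), with 1 point per gene. Red and blue points passed the test as higher and lower, grey points did not. The primitive streak list (median 1.55) lies farthest to the right and the pluripotency list (median -1.40) farthest to the left, and the ribosomal and respiratory chain lists lie close to 0.

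The levels of these probe sets were also read in the negative populations of other days. The earlier population was depleted of VEGF-R2 and the later of CD144, so that day and depleted marker cannot be told apart between them. The median signal of the 468 higher probe sets was 437 in VEGF-R2- cells at day 2.5, 382 in CD41- cells at day 3.5, 979 in CD144- cells at day 3.5 and 974 in CD144- cells at day 6.5. For the 320 lower probe sets the medians were 1037, 1320, 479 and 694 in the same order. In this set both populations of day 3.5 lay outside the range of the other days. Against VEGF-R2- cells at day 2.5 alone, 208 of 320 probe sets were higher in CD41- cells and 18 were higher in CD144- cells. Since the probe sets were chosen by the difference at day 3.5, the gap between the day 3.5 populations is given by their choice, and their place relative to the other days rests on the same chosen values.

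**Figure D4:**
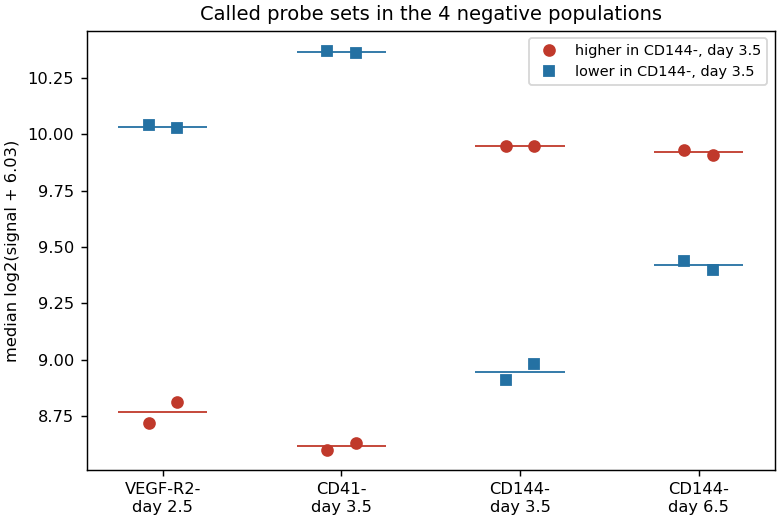
Median log2(signal + 6.03) over the 468 probe sets called higher (red circles) and the 320 called lower (blue squares) in CD144- cells at day 3.5, on each array of the 4 negative populations, with a line at the mean of the 2 arrays. The red points of CD144- cells at day 3.5 and day 6.5 lie at 9.91 to 9.95, and those of VEGF-R2- and CD41- cells at 8.6 to 8.81.

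The contrast of CD144- cells at day 6.5 with VEGF-R2- cells at day 2.5 uses 4 other arrays and shares only the fit's estimate of spread. In it 8.77% of all probe sets were called, 2275 (5.05%) higher and 1676 (3.72%) lower at the later day. Of the 468 probe sets higher in CD144- cells at day 3.5, 295 (63.0%) were also higher in that contrast and 22 (4.70%) were lower, and their median difference there was 0.99 against 0.08 over all probe sets. The 295 made up 13% of the 2275. Of the 320 lower probe sets, 140 (43.8%) were also lower there and 11 (3.44%) higher, with a median of -0.62, and the 140 made up 8.35% of the 1676. Myl7 differed by 3.45 in the contrast of days, Isl1 by 3.16 and Hand2 by 3.45. Mesp1, in contrast, differed by 0.28 there (adjusted p = 0.676), its mean being 403 at day 2.5, 1758 in CD144- cells at day 3.5 and 481 at day 6.5. Kdr ran opposite, with -2.41 in the contrast of days (adjusted p = 1.96e-05). Among the lower genes Dppa2 differed by -3.33 between the days and Sox2 by -0.18 (adjusted p = 0.861).

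**Figure D5:**
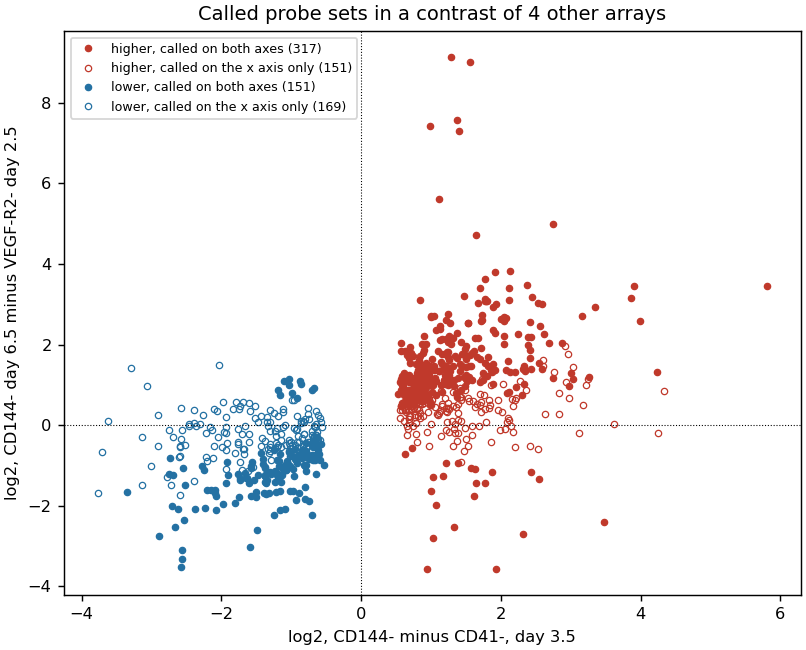
Log2 difference of the 788 called probe sets between CD144- and CD41- cells at day 3.5 (x axis) and between CD144- cells at day 6.5 and VEGF-R2- cells at day 2.5 (y axis, 4 other arrays). Filled points were called on both axes and open points on the x axis only. Most filled red points lie above 0 (295 of 317) and most filled blue points below 0 (140 of 151).

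The positive populations of day 3.5 give a second contrast on other arrays, CD41+ minus CD144+ cells, in which 9.78% of all probe sets were called, 1676 (3.72%) higher and 2728 (6.06%) lower. The 1676 higher probe sets equal in number, by coincidence, the 1676 lower in the contrast of days. Of the 320 probe sets lower in CD144- than in CD41- cells, 180 (56.2%) were lower in CD41+ than in CD144+ cells and 13 (4.06%) were higher, with a median of -0.90 against 0.02 over all probe sets. Of the 468 higher probe sets, 51 (10.9%) were higher there and 112 (23.9%) lower, with a median of -0.18. Myl7 was among the 112 (-1.48, limma adjusted p = 4.59e-05). The lower 180 made up 6.60% of the 2728, and the 51 made up 3.04% of the 1676. Zfp42, Fgf4 and Sox2 were thus lower in CD144- than in CD41- cells and lower in CD41+ than in CD144+ cells, by 3.42, 4.15 and 3.59 on the log2 scale in the latter contrast, and Zfpm1, Hbb-bh1 and Tal1 were higher in both, by 2.18, 4.63 and 1.38 in the latter. The positive arrays stood apart in the spiked controls given above, and the part of that in their levels was not tested.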

How the data were processed

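Gene expression was read from 16 Affymetrix arrays, 2 for each of 8 sorted populations, of which 4 were compared here and the others gave context. The deposited intensities are linear and were made with MAS5, as the submitters' processing notes name it, without a version. In these values each array's mean between percentiles 2 and 98 is 500. The study's methods describe another summary, dChip, whose values were not used here. Equal means hide a change in total RNA per cell. Arrays were assigned to populations by their labels.

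From 45101 probe sets 64 controls were left out. Signals were taken to log2 after an offset of 6.03 (percentile 10), and 8 population means were fitted over all 16 arrays with limma 3.58.1 under R 4.3.3, with a variance trend and Benjamini-Hochberg adjustment over 45037 probe sets. limma's adjusted p under 0.05 is the threshold of a call. An exact permutation test of 2 arrays against 2 cannot go below p = 0.333 and was not used. The number of arrays limits the precision. Gene symbols came from the platform annotation, with 34945 probe sets carrying 1 symbol, 932 several and 9160 none. Where several probe sets measured a list gene the brightest stood for it, and 655 of 700 listed genes were measured. Lists are described by counts and medians without a set test.

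Members and lists were chosen with earlier results of these data known. The text names Kdr, Itga2b, Cdh5 and Pecam1, the 10 called probe sets of largest difference in each direction (with 1 symbol, a mean over the 4 arrays above the median of all values, 85.8, and no overlap), up to 5 called members of each list, the 2 brightest members of a list with none called, and cell type markers. No other probe set of a named gene was called in the opposite direction. The other probe sets were called in the same direction for some genes, such as Krt8, Igfbp4 and Hspa1b. For others, such as Isl1, Hand2, Pdgfra, Fn1, Pcsk5 and Laptm5, they were not called. Other members of a list are given by name after their values were seen. Promoters were read from a RefSeq table of GRCm38.p6, over the 250 bases before each start. The procedure was tested on simulated data. Alternatives covered normalization, offset, a filter on dim probe sets, arrays in the fit, prior, criterion, replicate block and omission of each array. Plots used matplotlib 3.10.9 (Python 3.11.15).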

Additional observations from a re-analysis of the deposited data

How the results depend on the processing

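Of the 98 named probe sets that were called, 93 to 98 stayed called in the same direction under quantile normalization, other offsets, a floor, the filter on dim probe sets, both smaller sets of arrays and the replicate block, 88 with each array centred on its median, 57 under a robust prior without trend and 60 to 66 with 1 array left out, and none changed sign. Centring ended the calls of Krt18, Ndrg1, Pdk1, Klf4, Mt2, Gclm, Fst, Rbpj, Etv5 and Igf2bp3. The robust prior also ended the calls of Sox17, Sox2, Col4a2, Dll3 and Pfkp, which held in all 4 fits that left out an array. Of the 98, 56 stayed called in all 4 fits that left out an array, where the lone array is assumed to vary like the other groups. The count of 788 calls (468 higher, 320 lower) became 2381 (1273 and 1108) with only the 4 arrays in the fit, 1880 (1006 and 874) with the 8 negative arrays, 307 (177 and 130) under the robust prior, 417 (226 and 191) by the 90% interval, and 304 to 322 (171 to 209 and 111 to 133) without 1 array. The lower calls numbered 163 under centring, and calls shared with the 788 were 766, 773 and 284 in the first 3 of these fits. CD41+ against CD144+ cells gave 4404 calls, which became 1513 with only those arrays, 2303 with the positive arrays, 2605 under the robust prior, 1894 by the interval and 2307 to 5560 without 1 array. The contrast of days gave 3951, which became 7029 with the negative arrays, 1895 under the robust prior, 1074 by the interval and 1616 to 3495 without 1 array. The shares of calls that were also called in the contrast of days, computed under alternatives chosen after seeing the data, ranged from 48.4% to 66.7% for higher and from 29.4% to 56.6% for lower probe sets. The streak list's 14 calls became 8 under the robust prior and 8 to 9 without 1 array, and the pluripotency list's 15 became 9 under the robust prior. The causes of these moves were not tested.

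Uncalled genes near 0 changed sign. Under centring the differences were 0.05 for Itga2b and Hmgcs1, 0.07 for Rpl4, 0.02 for Rps18, 0.09 for Cox7a2 and 0.11 for Cox5b, and under quantile normalization 0.01 for Rpl4, 0.05 for Cox7a2 and 0.07 for Cox5b. With 1 array left out they ranged from -0.23 to 0.09 for Itga2b, -0.18 to 0.56 for Cdh5, -0.24 to 1.31 for Clec1b, -0.15 to 0.01 for Hmgcs1, -0.25 to 0.00 for Fdps, -0.02 to 0.09 for Hspa5, -0.11 to 0.02 for Rpl4, -0.10 to 0.05 for Cox7a2 and -0.10 to 0.09 for Cox5b.

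Deviations of same-numbered arrays from their group means correlated at -0.0067, so that no shared deviation was seen. This value cannot tell whether same-numbered arrays came from the same experiment. The main fit did not pair them. With the replicate block 834 probe sets were called, 490 higher and 344 lower, and P4ha2 was the named gene whose call it ended (adjusted p = 0.0546). Signals near the background limit the size of folds against dim values. Such are those of Myl7, Hand2 and the Nrp1 probe set drawn in CD41- cells, and of Dazl and Smc1b in CD144- cells. The 2 arrays per population limit every test.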
